A study of Mus musculus with 4 samples.

Results

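The 3 genes described here are F3, which encodes tissue factor, Procr, which encodes the protein C receptor, and C1s1, which encodes the complement protease C1s. They were taken by name, with every probe set that the platform annotation assigns to that gene alone, and they are 3 of the 18194 genes that have such a probe set. Each has 1 probe set, and no other probe set names any of them beside another gene. They had been selected on their levels in the STAT5 pair, as some of the largest decreases in STAT5-deficient relative to STAT5 wild-type cells, so their values in the STAT5 pair are a description and support nothing.

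The series used mouse T cells to ask what the transcription factors STAT3 and STAT5 contribute to gene expression while Th17 cells, the IL-17-producing helper T cells, form. Naive CD4+ T cells, negative for CD44 and positive for CD62L, came from C57BL/6J mice and were sorted out of spleen and lymph nodes. Expression was measured on Affymetrix Mouse Genome arrays, with 1 array in each of 4 groups. All mice carried the OT2 T cell receptor transgene, and all cells were cultured for 72 h on plate-bound anti-CD3 with anti-CD28, TGF-beta at 2 ng/ml, IL-6 at 20 ng/ml and a blocking antibody to IL-4. The STAT3-deficient cells carried stat3 fl/fl and CD4-Cre, a recombinase driven by the Cd4 promoter and thus active in T cells, and the STAT3 wild-type cells carried stat3 fl/fl without Cre. Both of these cultures contained anti-IL-2 antibody, at 10 ug/ml. The STAT5-deficient cells carried stat5 fl/fl and CD4-Cre, and the STAT5 wild-type cells stat5 fl/fl without Cre. These last groups received IL-2 at 100 IU/ml instead, so the controls of the pairs differ in IL-2 as well as in the floxed locus. The genotype labels of both deficient samples end in the words for wild type although they carry Cre, and the sample titles were followed. Sex, age and the number of mice behind each array are not given in the labels.

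Tissue factor is the cell surface receptor for coagulation factor VII and starts the extrinsic pathway of blood clotting. The protein C receptor binds protein C and presents it to thrombin on thrombomodulin, which yields activated protein C, an anticoagulant protease that also signals through protease-activated receptors. C1s is the serine protease of the first complement complex that cleaves C4 and C2 in the classical pathway. Tissue factor and the protein C receptor are best known from cells of the vessel wall and from monocytes, and C1s is a plasma protease made largely in the liver. Procr is also known as a surface gene of Th17 cells in mice.

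The DNA just upstream of the 3 genes is shown because the genes share their highest array, and because the STAT factors, AP-1 and Sp1 act through short motifs. RefSeq, on build GRCm38.p6, places the 250 bases before the start of F3 at chr3:121723287-121723536 on the plus strand, those of Procr at chr2:155750967-155751216 on the plus strand, and those of C1s1, for the more upstream of its 2 annotated starts, at chr6:124542360-124542609 on the minus strand. Capitals mark matches, on either strand, to the AP-1 motif TGANTCA and the Sp1 motif GGGCGG.
F3: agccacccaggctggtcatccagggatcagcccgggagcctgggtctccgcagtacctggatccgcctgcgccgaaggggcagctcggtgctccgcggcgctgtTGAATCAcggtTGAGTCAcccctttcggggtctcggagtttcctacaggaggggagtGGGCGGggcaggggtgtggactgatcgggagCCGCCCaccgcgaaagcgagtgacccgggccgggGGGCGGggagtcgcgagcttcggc
Procr: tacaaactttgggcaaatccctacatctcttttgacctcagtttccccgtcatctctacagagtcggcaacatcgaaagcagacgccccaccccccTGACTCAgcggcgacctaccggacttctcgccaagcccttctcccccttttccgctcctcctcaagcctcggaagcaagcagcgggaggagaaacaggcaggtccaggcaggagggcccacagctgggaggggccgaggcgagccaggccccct
C1s1: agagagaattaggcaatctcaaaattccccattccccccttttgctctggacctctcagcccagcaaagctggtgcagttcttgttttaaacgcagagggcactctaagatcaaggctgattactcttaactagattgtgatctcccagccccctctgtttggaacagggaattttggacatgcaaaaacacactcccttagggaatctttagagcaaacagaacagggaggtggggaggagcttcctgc
The STAT motif TTCNNNGAA was searched as well and had 0 matches in the 3 windows, against 7.02% of 32851 upstream windows of this length in the table. F3 had 2 AP-1 matches, TGAATCA at 146 to 140 bases and TGAGTCA at 135 to 129 bases before the start, and Procr had 1, TGACTCA at 154 to 148 bases. C1s1 had 0 matches to AP-1, a motif found in 6.75% of the windows. The Sp1 motif matched 3 times in F3 and 0 times in Procr and C1s1, against 32.7% of windows with a match. None of the matches overlapped. The windows differed in base composition, with 70.0% G and C for F3, 61.6% for Procr and 48.0% for C1s1. A match describes these letters only, and motifs outside the windows were not searched.

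**Figure D1:**
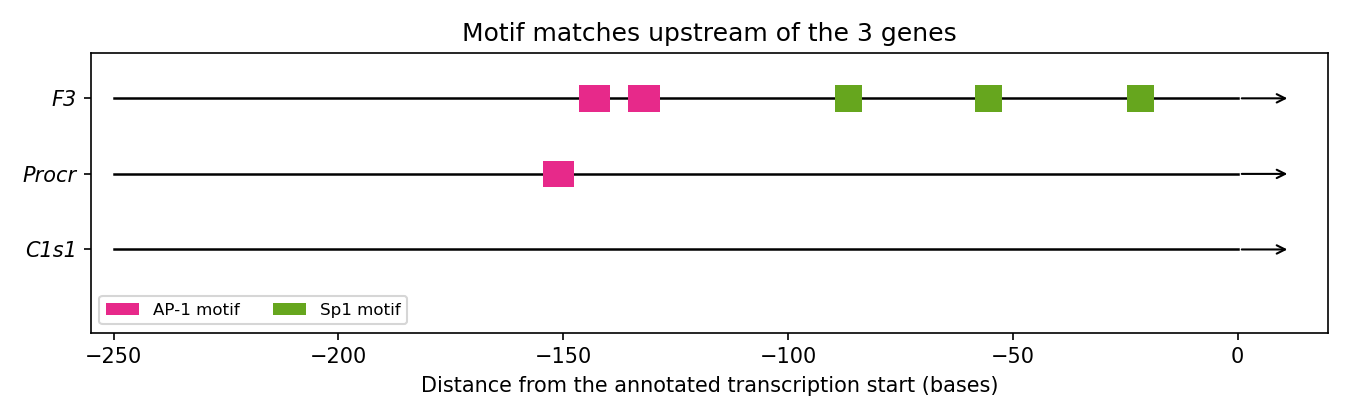
Motif matches in the 250 bases before the annotated start of each gene, with distance from the start in bases on the horizontal axis, 1 line per gene and an arrow at the start. F3 holds 2 AP-1 and 3 Sp1 matches, Procr 1 AP-1 match and C1s1 none of either.

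Levels are given as log2 values per probe set, as the deposited numbers were read, so that a difference of 1 is 2-fold. A level under 6.20, the median of all deposited values, was treated as not distinguishable from background. With 1 array per group there is no replicate, no error and no test, so every difference below describes a pair of arrays. Of the 18194 genes, 12440 exceeded 6.20 on at least 1 array and were compared, and all 3 genes described here did so, F3 and C1s1 only through the array on which they were high. The labelled deletions were checked on the targeted genes. Stat3 was at 9.93 in STAT3-deficient cells and 12.87 in STAT3 wild-type cells by its brightest probe set, a difference of -2.94. Of its 3 dimmer probe sets, 1 differed by -2.97 and the others by -0.22 and -0.41, and the one at -0.22 differed by -1.19 in the STAT5 pair. Stat5a was at 5.91 in STAT5-deficient cells and 10.92 in STAT5 wild-type cells, and Stat5b at 6.09 in STAT5-deficient cells and 11.33 in STAT5 wild-type cells. All 9 measured genes of a CD4 T cell list, among them Cd3e and Cd4, lay above 6.20 on every array.

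Procr was well above background on all 4 arrays and separated all 4 cultures. Its level was 8.18 in STAT3-deficient cells and 10.41 in STAT3 wild-type cells, both with IL-2 neutralised. It was 9.17 in STAT5-deficient cells and 12.73 in STAT5 wild-type cells, both with IL-2 added. The order from high to low was thus STAT5 wild type, STAT3 wild type, STAT5-deficient and STAT3-deficient, with gaps of 2.32, 1.24 and 0.99 between neighbours. The last gap fell short of 2-fold, and whether the neighbours differ beyond the spread of cultures cannot be said from single arrays.

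F3 was above background on 1 array. Its level was 3.62 in STAT3-deficient cells and 3.54 in STAT3 wild-type cells. STAT5-deficient cells had 3.26 and STAT5 wild-type cells 6.57. The 3 low arrays spanned 0.36, and the STAT5 wild-type array stood 2.95 above the highest of them. That array passed the background level by 0.37, so tissue factor transcript stood only just above the level treated as background. This level is not a measured detection limit.

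C1s1 had the same shape as F3 at a clearer signal. Its level was 4.15 in both STAT3-deficient and STAT3 wild-type cells. STAT5-deficient cells had 4.26 and STAT5 wild-type cells 7.44. The 3 low arrays lay within 0.11 of each other and the STAT5 wild-type array was 3.18 above the highest of them and 1.24 above the background level. The C1s1 probe set is of a kind that can match several transcripts, as is that of Procr. Mice have a close paralog, C1s2, which was not analysed here, so signal from it could not be told apart from that of C1s1.

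**Figure D2:**
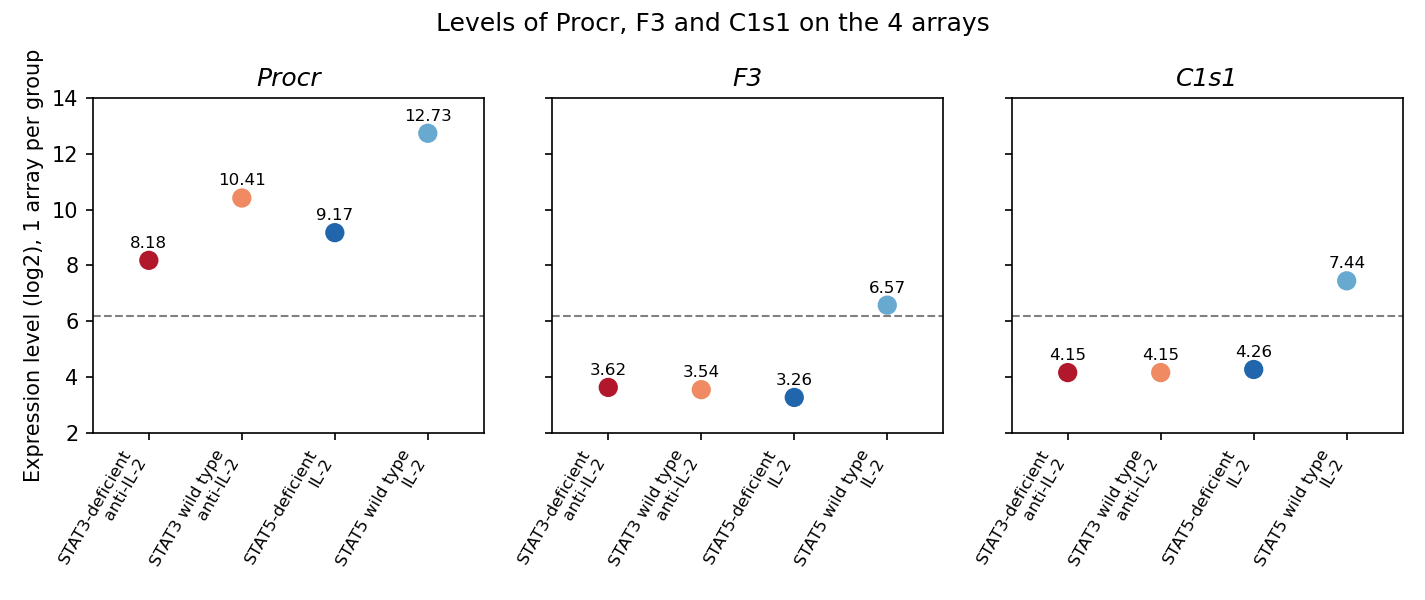
Level of Procr, F3 and C1s1 (log2, 1 point per array, no error bars because each group has 1 array), with the background level of 6.20 as a dashed line. Procr lies above the line on 4 arrays, from 8.18 to 12.73, while F3 and C1s1 lie above it only on the STAT5 wild-type array, at 6.57 and 7.44.

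The low levels are coarse. The 45101 probe sets of an array take between 3608 and 4276 distinct values, and low values are shared by many probe sets. The F3 levels on the 3 low arrays were each shared with 199 to 346 other probe sets and those of C1s1 with 311 to 387. On the STAT5 wild-type array 94 other probe sets had the value of F3, 36 that of C1s1 and 0 that of Procr. Differences between the low arrays of F3 and C1s1 lie under background on single arrays, so no order is read from them.

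Without STAT3, Procr was lower and F3 and C1s1 were not measurably different. The genes were selected on the STAT5 pair but with earlier results of these data known, so the STAT3 values are a description as well. Procr, the receptor that supports protein C activation, differed by -2.24, or 4.71-fold, between STAT3-deficient and STAT3 wild-type cells. It had the decrease of rank 151 among the 12440 genes. In this pair 7.23% of all genes were lower and 2.85% higher by 2-fold or more. The middle 95% of genes ran from -1.64 to 1.09, and Procr lay outside that range. F3 differed by 0.08 and C1s1 by -0.001, but both lay under background on both arrays of the pair, so a change at lower levels could not have been seen. The count was thus 1 of the 3 genes lower and 0 higher. The median gene of this pair differed by -0.20, relative to which Procr stood at -2.04. Centring each array on its median added 0.24 to every difference and left Procr at -1.99, while the share of lower genes among all genes past 2-fold moved to 53.4%, against 71.8% as deposited.

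Without STAT5, in the pair on which the genes were chosen, all 3 lay far down the list. Procr differed by -3.56 (11.8-fold), F3 by -3.31 (9.92-fold) and C1s1 by -3.18 (9.06-fold), between STAT5-deficient and STAT5 wild-type cells. These were the decreases of rank 4, 6 and 9, the targeted genes included. In this pair 1.74% of genes were lower by 2-fold or more, a share given for scale only, since the choice of the genes fixed their count. For F3 and C1s1 the lower side was under background, and a more cautious reading puts a floor at 6.20 under every level. On that reading C1s1 differed by -1.24, which is at least 2.37-fold lower. F3 then differed by -0.37, which is at least 1.29-fold lower and falls short of the 2-fold limit. Procr was unaffected because both of its levels were above background.

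Between the controls, STAT5 wild-type cells with IL-2 showed a higher level of each transcript than STAT3 wild-type cells with IL-2 neutralised. The difference was 3.29 for C1s1, 3.03 for F3 and 2.32 for Procr, against 2.35% of all genes higher by 2-fold or more and 5.3% past 2-fold in either direction. This comparison shares the STAT5 wild-type array, on which the genes were chosen to be high, with the STAT5 pair, so nothing further is read from the count. With levels under background set to 6.20 the difference was at least 1.24 for C1s1 and at least 0.37 for F3. IL-2 and the floxed locus differ together between these cultures and cannot be told apart.

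**Figure D3:**
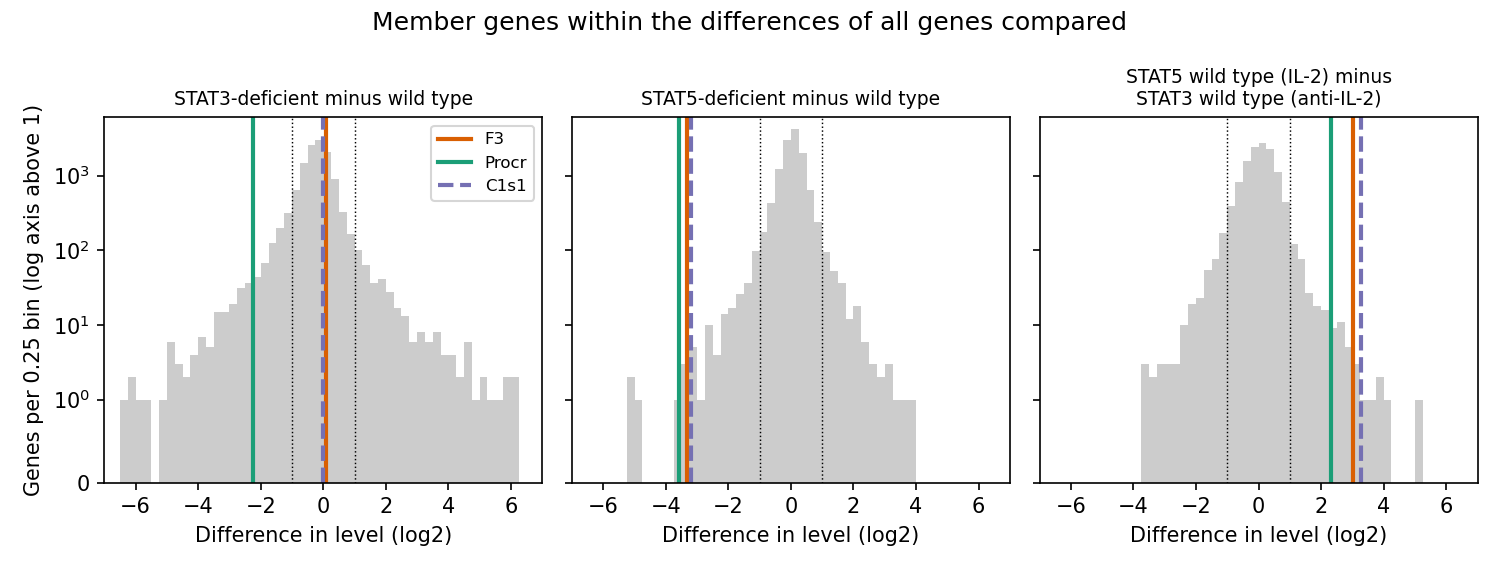
Distribution of differences in level (log2) over the 12440 genes compared, in 3 panels for the 3 comparisons, with a log axis for the number of genes per bin and dotted lines at 2-fold. Procr lies at -2.24, -3.56 and 2.32 in the 3 panels, whereas F3 and C1s1 lie near 0 in the STAT3 panel and beyond 2-fold in the other panels.

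Read over all 4 arrays, the STAT5 wild-type array was 2-fold or more above each other array for all 3 genes on the levels as deposited, a pattern found in 53 of the 12440 genes, or 0.426%. With levels under background set to 6.20 the gap was 2.32 for Procr, at least 1.24 for C1s1 and at least 0.37 for F3, which no longer met the pattern, and 41 genes met it. As deposited, the same held for the STAT3-deficient array in 1.5% of genes, the STAT3 wild-type array in 0.635% and the STAT5-deficient array in 0.37%. That the 3 genes show it follows in part from the choice of the genes. Among those 53 genes, 16 (0.129% of all) were above background only on that array, as F3 and C1s1 were, and 37 (0.297%) were above it on some other array too, as Procr was. Procr was lower in both deletion pairs, as were 68 genes in all (0.547%), a comparison that F3 and C1s1 do not allow because both were under background in the STAT3 pair, and 15 of these (0.121%) were also higher in STAT5 wild-type than in STAT3 wild-type cells. In bulk RNA of this kind, fewer cells carrying a transcript and less of it per cell cannot be told apart.

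Many genes of the coagulation and complement systems lay under the background level in these cultures, which does not show that they were silent. From 8 lists of coagulation, anticoagulant, fibrinolysis, protease receptor and complement genes, F3, Procr and C1s1 were left out. Of the 92 genes, 77 had a probe set of their own, and 48 of these lay under background on all 4 arrays. Among all 18194 genes with such a probe set, 68.4% exceeded background on at least 1 array. Of the 29 that were measured, 0 were lower and 1 higher by 2-fold or more without STAT5, and 1 was lower and 1 higher without STAT3. The shares of all genes called were 3.6% in the STAT5 pair and 10.1% in the STAT3 pair. The median of the 29 genes was -0.01 without STAT5, against 0.06 for all genes, and -0.33 without STAT3, against -0.20 for all genes.

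In the coagulation cascade, F2, which encodes prothrombin, was the only 1 of 16 genes to pass the background level. It was at 4.57 in STAT3-deficient cells and 6.23 in STAT3 wild-type cells, a difference of -1.66 whose higher side lay at the edge of background and which was -0.03 with the floor at 6.20. Its levels of 4.89 in STAT5-deficient and 4.84 in STAT5 wild-type cells were both below it. F7 and F10, the factors that tissue factor engages, were under background on all 4 arrays.

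Among anticoagulant genes, 6 of 11 were measured. Serpinc1, which encodes antithrombin, the main circulating inhibitor of thrombin, was at 8.88 in STAT3-deficient cells and 5.81 in STAT3 wild-type cells, and at 6.09 in STAT5-deficient and 5.39 in STAT5 wild-type cells. Only the STAT3-deficient level was above background, so with the floor at 6.20 Serpinc1 was at least 6.42-fold higher without STAT3. Proc, which encodes protein C, the ligand of the protein C receptor, was at 6.29 in STAT5-deficient cells and 5.17 in STAT5 wild-type cells. That difference of 1.11 just passed 2-fold, rested on 1 level barely above background, and was 0.99 with intensity-dependent centring and 0.09 with the floor at 6.20. Thbd, which encodes thrombomodulin, the partner of the protein C receptor in protein C activation, lay under background on all 4 arrays, between 5.74 and 6.19. Tfpi, which encodes the inhibitor of the tissue factor and factor VII complex, was measured on every array, at 9.10 in STAT3-deficient, 9.14 in STAT3 wild-type, 8.41 in STAT5-deficient and 8.89 in STAT5 wild-type cells, with no difference of 2-fold within a pair.

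The measured fibrinolysis genes and thrombin receptors differed by less than 2-fold in both deletion pairs, as did most of all genes compared. Plaur, which encodes the urokinase receptor, was at 7.22 in STAT5-deficient cells and 8.15 in STAT5 wild-type cells (-0.93), the farthest of the 6 measured fibrinolysis genes in that pair, and Serpinf2, an inhibitor of plasmin, was farthest without STAT3 at -0.68. F2r, the main thrombin receptor and a receptor through which activated protein C signals, was clearly expressed, at 10.04 in STAT5-deficient and 10.60 in STAT5 wild-type cells (-0.56), and at 9.48 in STAT3-deficient and 9.90 in STAT3 wild-type cells (-0.42).

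The complement lists held 49 genes, of which 14 were measured and 0 passed 2-fold in either deletion pair. Over all genes 3.6% passed in the STAT5 pair and 10.1% in the STAT3 pair, so 0 of 14 is not read as a trait of these lists. C1ra, which encodes the protease that activates C1s, lay under background on all 4 arrays, at 4.31 in STAT3-deficient, 4.66 in STAT3 wild-type, 4.21 in STAT5-deficient and 5.05 in STAT5 wild-type cells. C1qa, C1qb and C1qc, the recognition subunits of the same complex, were under background throughout as well. The farthest members without STAT3 were Cd46, a complement regulator, at -0.99 and Cfb, a protease of the alternative pathway, at -0.86. Both were under background in STAT3-deficient cells, at 5.41 for Cd46 and 5.37 for Cfb. In STAT3 wild-type cells they were only just above it, at 6.39 and 6.23. With levels under background set to the background level, Cd46 differed by -0.19 and Cfb by -0.03. Without STAT5 the farthest member was Clu, a fluid-phase regulator, at -0.83, which that floor left unchanged. Itgb2, the shared beta chain of leukocyte integrins that include complement receptors, stood near 12.4 to 12.8 on all arrays and differed by 0.14 without STAT3 and -0.32 without STAT5.

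**Figure D4:**
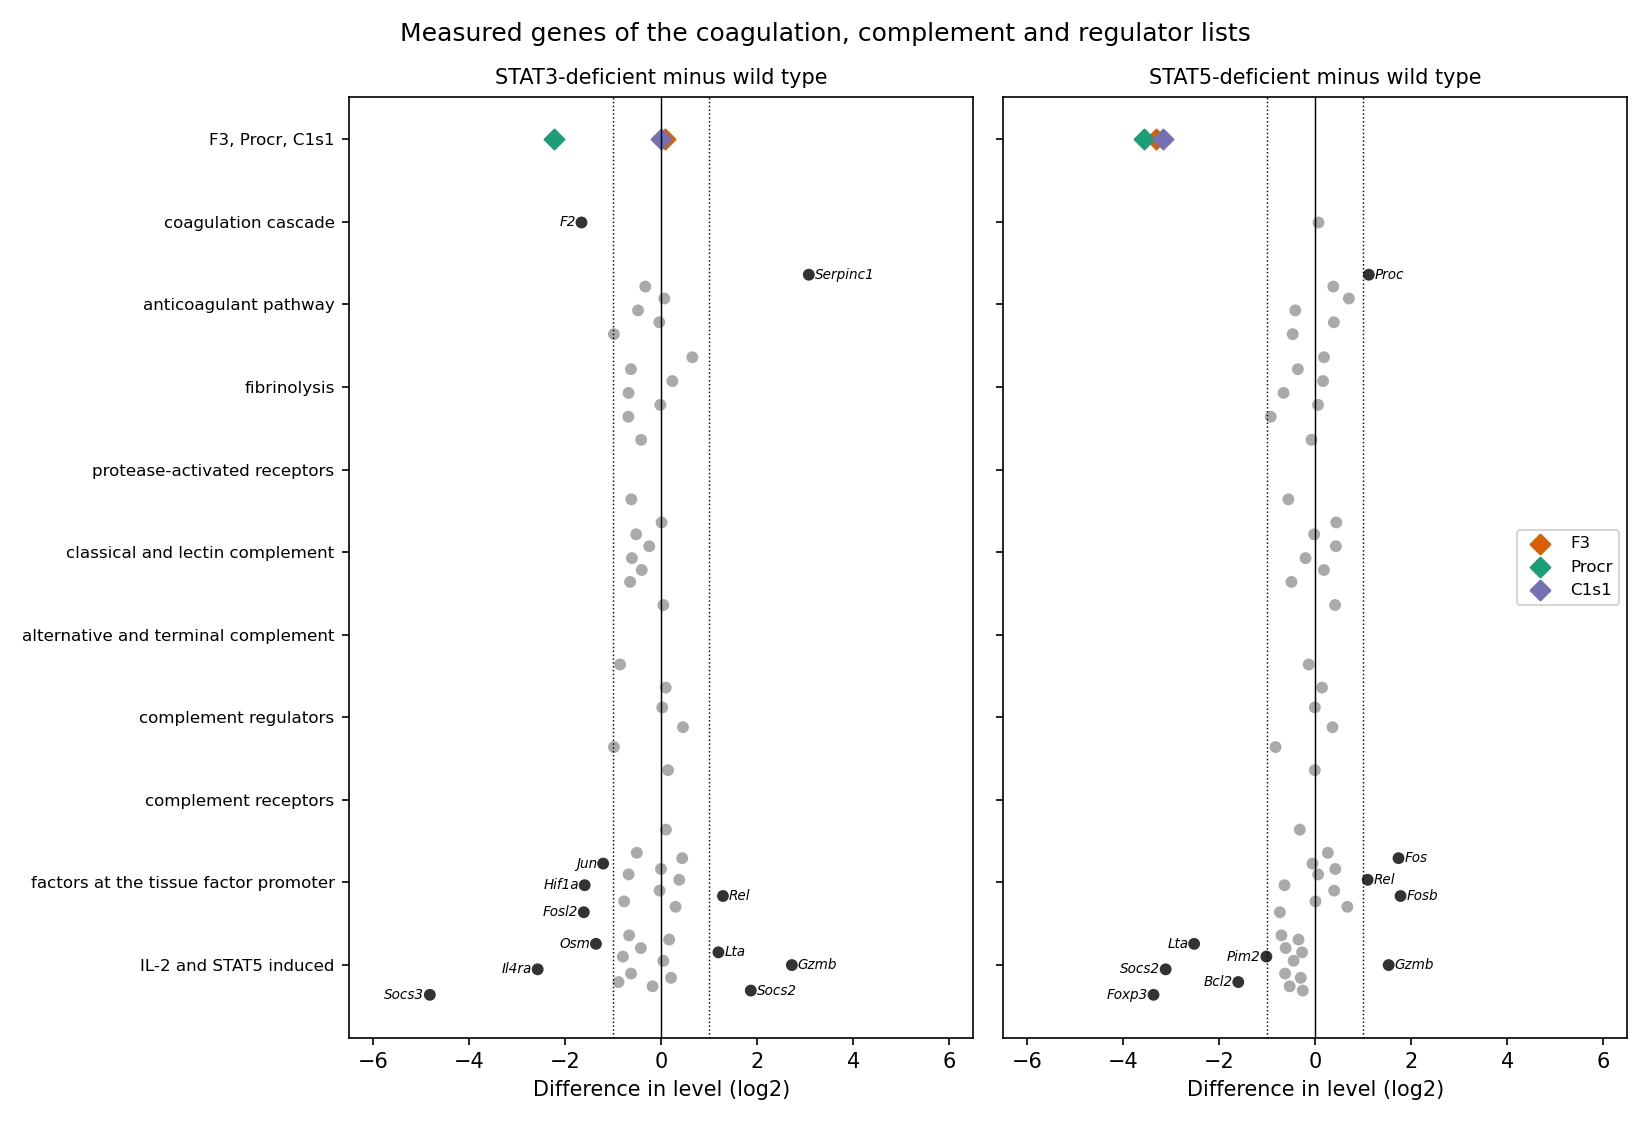
Differences in level (log2) of the measured genes of 10 lists in the STAT3 pair (left) and the STAT5 pair (right), with 1 point per gene, dark points with names past 2-fold and diamonds for F3, Procr and C1s1. In the 8 coagulation and complement lists only F2, Serpinc1 and Proc pass 2-fold on the levels as deposited, and with the floor at 6.20 only Serpinc1 does.

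Among 12 measured factors known to act at the tissue factor promoter, 3 were higher and 0 lower without STAT5, where 1.86% of all genes were higher and 1.74% lower. Fos and Fosb, subunits of AP-1, differed by 1.73 and 1.77, and Rel, an NF-kappaB subunit, by 1.09, with Fosb above background only in STAT5-deficient cells, at 6.32, and at 0.13 with the floor at 6.20. The median of the list was 0.33, against 0.06 for all genes. Without STAT3, where 2.85% of all genes were higher and 7.23% lower, 1 was higher (Rel, 1.28) and 3 were lower: Fosl2 (-1.61), Hif1a (-1.59) and Jun (-1.21), where Jun stood at -0.97 with arrays centred on their medians. The median there was -0.27, against -0.20 for all genes. Egr1, another factor of this promoter, was at 9.91 in STAT5-deficient and 10.64 in STAT5 wild-type cells, within 2-fold.

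In a list of 15 known target genes of IL-2 and STAT5, 5 were lower and 1 higher without STAT5, with a median of -0.62. Of all genes 1.74% were lower and 1.86% higher in that pair, with a median of 0.06. Foxp3, the regulator of regulatory T cells, differed by -3.37, Socs2, a feedback inhibitor of cytokine signalling, by -3.12, Lta, which encodes lymphotoxin alpha, by -2.52, and Bcl2, a survival factor, by -1.60. With probe sets averaged Socs2 differed by -1.89. The 1 higher member was Gzmb, at 1.53. The Foxp3 level in STAT5-deficient cells was under background, and with the floor at 6.20 it was at least 2.90-fold lower. The direction of this list had been reported for these arrays before, so it is no independent evidence. Without STAT3, this list had 3 lower and 3 higher members and a median of -0.42, against 7.23% lower, 2.85% higher and a median of -0.20 over all genes. The largest were Socs3, a feedback inhibitor of IL-6 signalling, at -4.82, Gzmb, a granule protease, at 2.72 (at least 2.05 with the floor), Il4ra, an IL-4 receptor subunit, at -2.57 and Socs2 at 1.86.

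Markers of other cells in which F3, Procr or C1s1 are known were in part above background. That level is the median of all deposited values, so about 50% of probe set values lie above it by construction. Genes were counted by their probe set of highest mean, and 68.4% of all genes exceeded 6.20 on at least 1 array. The counts below are therefore not read as presence of other cells. In the endothelial list, the numbers of the 12 genes above background were 5 in STAT3-deficient, 6 in STAT3 wild-type, 6 in STAT5-deficient and 5 in STAT5 wild-type cells. The mean level of the list was 5.86 in STAT3-deficient, 6.15 in STAT3 wild-type, 5.96 in STAT5-deficient and 5.94 in STAT5 wild-type cells. Pecam1, an adhesion molecule of endothelium and of leukocytes, was at 8.15 in STAT3-deficient, 8.39 in STAT3 wild-type, 7.85 in STAT5-deficient and 7.61 in STAT5 wild-type cells, whereas Cdh5, the defining cadherin of endothelium, was under background on all 4 arrays. Of 12 fibroblast genes, 2 were above background in STAT3-deficient, 5 in STAT3 wild-type, 4 in STAT5-deficient and 2 in STAT5 wild-type cells, and Col1a1, Col3a1 and Pdgfra were under it on all 4 arrays. Without STAT3, 2 of the 5 measured genes of that list were lower by 2-fold or more, as Procr was and as were 7.23% of all genes. Pdpn, a surface glycoprotein, was the highest of the list, at 10.38 in STAT3-deficient and 12.10 in STAT3 wild-type cells (-1.73), and at 10.94 in STAT5-deficient and 11.23 in STAT5 wild-type cells. Lum, a matrix proteoglycan, was at 4.76 in STAT3-deficient and 8.06 in STAT3 wild-type cells, at least 3.62-fold lower with the floor at 6.20. It was higher in the other pair, at 8.34 in STAT5-deficient and 6.13 in STAT5 wild-type cells. The part of these genes in the Procr difference was not tested. Of 11 monocyte, macrophage and dendritic cell genes, 4 were above background in STAT3-deficient cells and 3 on each other array, with Cd14 and Adgre1 under background throughout. Of 7 platelet genes with a probe set, 4 were above background on each array. Without STAT5, where 1.74% of all genes were lower by 2-fold or more, Pf4, a platelet chemokine, was the only such gene of these 4 lists. It was at 5.02 in STAT5-deficient and 6.32 in STAT5 wild-type cells (-1.30). With the floor at 6.20 its difference was -0.12, and its part in the result was not tested. Between the controls Egfl7, an endothelial secreted factor, was higher by 2-fold or more as well, at 9.29 in STAT5 wild-type and 7.99 in STAT3 wild-type cells, but it was at 9.15 in STAT5-deficient cells.

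The genes most like each of the 3 were found from their deviations from their own mean over the 4 arrays, as a root mean square difference in log2 units. F3 and C1s1 were closer to each other than F3 was to any other of the genes compared, at 0.19, against a median of 1.34 from F3 to all genes. Procr was 0.84 from F3 and 0.80 from C1s1. This closeness follows partly from the low, coarse values of F3 and C1s1 on 3 arrays and from the choice of the genes.

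Nearest to Procr among genes outside the 3 came Enah, an actin regulator, at 0.31. Its level was 5.19 in STAT3-deficient, 6.63 in STAT3 wild-type, 6.05 in STAT5-deficient and 9.29 in STAT5 wild-type cells. Both deficient levels lay under background. With probe sets averaged Enah was no longer among the 5 nearest, and Cysltr1 came first. Lhx6, a homeodomain factor (0.49), Batf3, an AP-1 family factor (0.57), Sgk1, a kinase (0.59), and Cysltr1, a leukotriene receptor (0.61), followed. Sgk1 was at 7.78 in STAT3-deficient, 10.87 in STAT3 wild-type, 9.03 in STAT5-deficient and 11.54 in STAT5 wild-type cells. On the levels as deposited, all 5 of these genes had the same order of arrays as Procr.

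Nearest to F3 came Anxa3, a phospholipid-binding annexin (0.33), Gap43, a growth cone protein (0.36), Cd36, a scavenger receptor (0.40), Shroom3, an actin-binding protein (0.42), and Atf3, a stress-induced factor (0.43). Anxa3 carried the pattern above background on every array, at 7.40 in STAT3-deficient, 7.32 in STAT3 wild-type, 6.49 in STAT5-deficient and 9.59 in STAT5 wild-type cells. Nearest to C1s1 came Cd36 (0.34), Batf3 (0.35), Atf3 (0.37), Foxp3 (0.43) and Usp17la, a deubiquitinase (0.43). Cd36 was above background on the STAT5 wild-type array alone. With probe sets averaged Cd36 was no longer among the nearest genes of F3 or C1s1, and Batf3 came first for C1s1. Foxp3 was at 3.32 in STAT3-deficient, 3.94 in STAT3 wild-type, 4.36 in STAT5-deficient and 7.73 in STAT5 wild-type cells, above background on the last of these alone, as C1s1 was. Batf3 was measured on every array, at 7.65 in STAT3-deficient, 8.52 in STAT3 wild-type, 8.38 in STAT5-deficient and 11.08 in STAT5 wild-type cells.

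**Figure D5:**
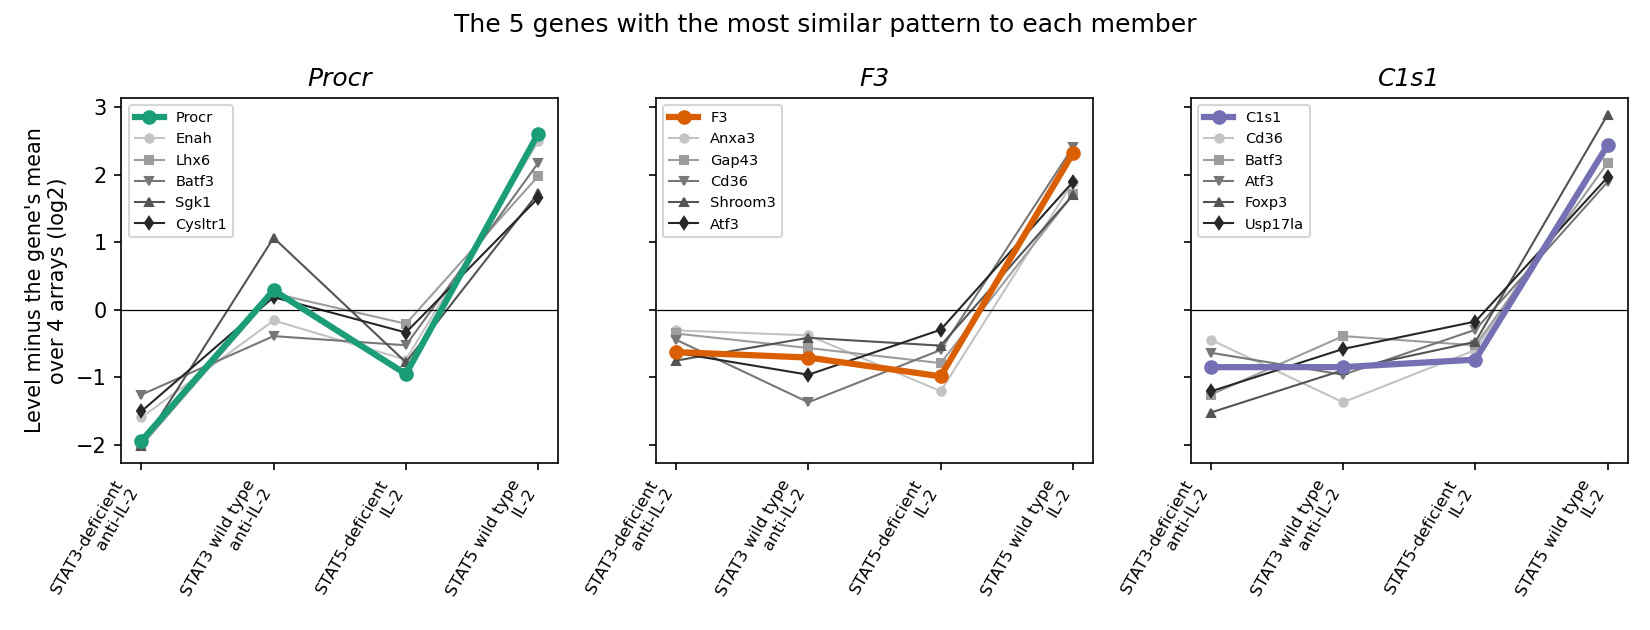
Level minus the gene's own mean over the 4 arrays (log2) for Procr, F3 and C1s1 (thick lines) and the 5 genes nearest to each (thin lines), 1 point per array, with lines only to join the points of a gene. All genes shown peak on the STAT5 wild-type array, which follows from choosing them for likeness to genes high there. Procr has a step between the STAT3-deficient and STAT3 wild-type arrays, where F3 and C1s1 lie under background.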

How the data were processed

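Biotin-labelled material from the total RNA of 4 cultures was measured on 1 array each, per the labels' protocols. The deposited values were made by the authors with Affymetrix Power Tools, per the submitters' processing notes, and are taken here to be log2 expression levels of probe sets, since they lie between 2.48 and 15.09. No source used here gives the log base, summarisation, background correction or normalization, and another base would change every fold change. No detection calls were used. Array medians were 6.10 for STAT3-deficient, 6.34 for STAT3 wild-type, 6.21 for STAT5-deficient and 6.15 for STAT5 wild-type cells, and values were left as deposited.

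Of 45101 probe sets, 34958 name 1 gene, 932 several and 9211 none; the last 2 kinds were left out. Gene identifiers matched RefSeq genes of GRCm38.p6 for 99.1%, with 0 symbols changed. Each gene was represented by its probe set of highest mean, and genes whose highest level did not exceed 6.20 (percentile 50 of all values) were dropped. Differences were computed with Python 3.11.15, numpy 2.4.6 and pandas 2.3.3 and checked on simulated data. No test was possible with 1 array per group, and a gene counts as called at 2-fold.

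The members and the 18 gene lists, 8 of them cell type markers, were chosen with earlier results of these data known. The other genes named are, per list and deletion pair, up to 4 past 2-fold or the farthest, and the 5 nearest in pattern. F7, F10, Thbd, Tfpi, C1ra, the C1q genes, Egr1, Cdh5, Col1a1, Col3a1, Pdgfra, Pecam1, Egfl7, Cd14, Adgre1, Cd3e and Cd4 were named for their roles after their values were seen. The alternatives tried were averaging over the probe sets, dropping the multi-transcript probe sets (suffixes _s, _x and _a), no filter, percentile 75 (8.29), median centring, loess centring (span 0.4, statsmodels 0.14.6), thresholds of 1.5-fold and 3-fold and, added after seeing the data, levels under 6.20 set to it and the pattern of the STAT5 wild-type array above each other array.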

Additional observations from a re-analysis of the deposited data

Results flagged for a closer look

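The effects of the deletions in the STAT3 and STAT5 pairs lay past 2-fold in opposite directions for 3 of the genes named, and with single arrays these contrasts were not tested. The share of all genes with such opposite effects was not counted, so the number is a description only. Socs2 differed by 1.86 without STAT3 and -3.12 without STAT5, a gap of -4.98 (STAT5 minus STAT3 effect). Averaging its probe sets brought the STAT3 value to 0.89, within 2-fold, and the STAT5 value to -1.89. Lta differed by 1.19 without STAT3 and -2.52 without STAT5, a gap of -3.72. Lum differed by -3.29 without STAT3 and 2.22 without STAT5, a gap of 5.51, but its levels of 4.76 in STAT3-deficient and 6.13 in STAT5 wild-type cells both lay under background, so these sizes are not exact. With levels under 6.20 set to it they were -1.86 and 2.15.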

How the results depend on the processing

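Procr kept its direction and stayed past the limit in use under every alternative that gave it a value, from -2.24 to -1.99 without STAT3, from -3.64 to -3.56 without STAT5 and from 2.07 to 2.51 between controls. F3 and C1s1 did so in the STAT5 pair and between controls, except with levels under 6.20 set to 6.20, where F3 stood at -0.37 without STAT5 and 0.37 between controls. Without STAT3, loess centring moved F3 to 0.97 and C1s1 to 0.77, still within 2-fold and on levels under background. Dropping multi-transcript probe sets gave no value for Procr or C1s1, and the filter at percentile 75 gave none for F3 or C1s1. Genes past the limit numbered 1254 without STAT3, 448 without STAT5 and 659 between controls. In the same order they numbered 774, 254 and 356 with the filter at percentile 75, 3093, 1444 and 2584 at 1.5-fold, and 522, 143 and 177 at 3-fold, as the stricter or looser limits imply, and 679 without STAT5 when no filter was applied. Lower genes were 55.7% of those past 2-fold between controls as deposited and 27.8% with arrays centred on their medians. Array centring cancels in the likeness of patterns, and with probe sets averaged 3 of the 5 genes nearest to F3, 4 of those nearest to Procr and 4 of those nearest to C1s1 were the same. No paired analysis was possible because each group has 1 array. Signal over background limits F3 and C1s1, which exceeded 6.20 on 1 array each.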

Other observations

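Procr was 1 of 15 genes, 0.121% of those compared, that were lower by 2-fold or more in both deletion pairs and higher in STAT5 wild-type than in STAT3 wild-type cells; the pattern was chosen after the values were seen. The pair comparisons share arrays with the last comparison, so the count is a description. Il24, which encodes a secreted cytokine, was at 5.30 in STAT3-deficient, 8.61 in STAT3 wild-type, 6.63 in STAT5-deficient and 11.55 in STAT5 wild-type cells. Lbp, which encodes a lipopolysaccharide-binding protein, was at 5.27 in STAT3-deficient, 8.61 in STAT3 wild-type, 8.85 in STAT5-deficient and 10.86 in STAT5 wild-type cells. Besides Procr, the genes of this set above background on all 4 arrays were Alpk2, Cysltr1 and Emp1. Alpk2, a kinase gene, was at 6.66 in STAT3-deficient, 9.69 in STAT3 wild-type, 9.17 in STAT5-deficient and 11.06 in STAT5 wild-type cells. Emp1, an epithelial membrane protein gene, was at 7.89 in STAT3-deficient, 10.26 in STAT3 wild-type, 10.27 in STAT5-deficient and 11.75 in STAT5 wild-type cells.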
